A study of Mus musculus with 7 samples.

Results

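Pou5f1, Sox2, Nanog, Esrrb, Klf4, Sall4, Zfp42, Fbxo15, Dppa5a and Tdgf1 are genes by which mouse embryonic stem cells (mESCs) are recognised, and their RNA was followed in mini-oocytes, the oocyte-like cells that mESCs turn into when oocyte transcription factors are expressed in them. These 10 genes of the 55364 listed were found by their symbol. They were chosen by their values in these same libraries, as pluripotency genes of which some were found and others were low or fell. The day 21 and day 7 levels of the 10 genes are therefore given as a description and carry no test. No library of mESCs before induction is among these samples. Whether a gene was kept or lost relative to the starting cells therefore cannot be read from them.

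mESCs stay undifferentiated through a small network of transcription factors in which Pou5f1 (also called Oct4), Sox2 and Nanog act on each other's regulatory regions. Esrrb, Klf4 and Sall4 are further transcription factors of that network, Zfp42 (Rex1), Fbxo15 and Dppa5a are known as genes that the network keeps active, and Tdgf1 encodes Cripto, a co-receptor for the growth factor Nodal. Part of this set is also used by the germ line: Pou5f1 is made in growing oocytes, and several relatives of Dppa5a encode KH domain proteins stored in the egg.

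RNA-seq was performed on 7 libraries in 3 groups. All cells came from BVSC H18, a female mESC line with the strain label hybrid 129/C57BL6, and were cultured from day 0 in medium with SCF, Y-27632 (a ROCK inhibitor) and Shield1, with Shield1 left out from day 12. In 4F-mini-oocytes the induced factors were Nobox, Figla, Tbpl2 and Lhx8, and these were collected at day 7 (n = 2, 1000 cells pooled per sample) and at day 21 (n = 3, 10 cells pooled per sample). In 8F-mini-oocytes Stat3, Dynll1, Sub1 and Sohlh1 were added to the same 4 factors, and these were collected at day 21 (n = 2, 10 cells pooled per sample). The paper describes a Npm2-mCherry reporter cassette in the 8F-mESCs. Added factors, cell line and reporter changed together and cannot be told apart. The induced factors are fused to a destabilization domain that Shield1 protects, so day 7 samples were taken with Shield1 in the fresh medium and day 21 samples after it had been left out. Day and the number of cells pooled changed together and cannot be told apart. The paper names 2 sequencers with different read lengths and does not say which samples ran on which, so such a batch could not be tested. Both lines share 1 parental line, and the labels do not say that replicates were separate cultures, so p-values measure only the spread between these samples, which may be technical.

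Values are TPM, in which read numbers are set against exon length and each library is brought to 1 total, so that levels of different genes can be compared. Between 9506066 and 18027723 reads lay on genes in each library, at which depth 3 reads on a transcript of 1 kb stand for 0.515 to 0.764 TPM. Limits of this kind are given for genes listed at 0 and cover counting error only, since amplified reads were not collapsed to molecules. The label of the cells was compared with 14 oocyte markers, among them the zona pellucida genes Zp1, Zp2 and Zp3, and all 14 were found in every group and were higher at day 21 than at day 7 in 4F (limma on log2(TPM + 1) with Benjamini-Hochberg adjustment over 21780 genes at FDR 0.05, the test used throughout). Their summed level was 11773 to 14677 TPM at day 7, 50312 to 54848 TPM in 4F at day 21 and 38223 to 38832 TPM in 8F at day 21. By the same test 25.3% of all tested genes were higher and 15.3% lower over time in 4F. In bulk samples fewer cells of a type and less RNA per cell cannot be told apart. In the same step from day 7 to day 21, the 8 tested trophoblast markers of a list of 11 all fell, and the summed level of the list went from 1228 to 1737 TPM to 45.5 to 145 TPM in 4F and 44.3 to 51.3 TPM in 8F, most of it Krt8 and Krt18 (keratins of simple epithelia), while Cdx2 and Elf5 were below 1 TPM on average in each group. The 10 most abundant genes held 28.5% to 31.8% of all TPM at day 7 and 10.2% to 14.0% at day 21. The part of either in the levels below was not tested.

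The stretch just before the transcription start is shown for 4 of the 10 genes, chosen because they stand for the different outcomes below: Pou5f1 and Esrrb, which were higher at day 21, Zfp42, which was lower, and Nanog, which was nearly undetected throughout. Sequences are from RefSeq, on build GRCm38.p6, written 5′ to 3′ on the strand of the gene, in lower case with the motif letters found in capitals. They cover chr17:35505782-35506017 on the plus strand for Pou5f1, chr12:86360867-86361116 on the plus strand for Esrrb, chr8:43307010-43307259 on the minus strand for Zfp42 and chr6:122707239-122707488 on the plus strand for Nanog.
Pou5f1: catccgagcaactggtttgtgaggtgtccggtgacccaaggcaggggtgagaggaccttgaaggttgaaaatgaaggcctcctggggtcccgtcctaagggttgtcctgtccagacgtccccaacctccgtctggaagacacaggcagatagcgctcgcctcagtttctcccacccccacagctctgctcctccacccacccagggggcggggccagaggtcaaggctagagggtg
Esrrb: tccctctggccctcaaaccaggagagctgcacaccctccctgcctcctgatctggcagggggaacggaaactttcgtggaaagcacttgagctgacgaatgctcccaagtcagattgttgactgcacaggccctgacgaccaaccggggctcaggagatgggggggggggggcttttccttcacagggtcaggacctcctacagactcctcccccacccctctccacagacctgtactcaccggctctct
Zfp42: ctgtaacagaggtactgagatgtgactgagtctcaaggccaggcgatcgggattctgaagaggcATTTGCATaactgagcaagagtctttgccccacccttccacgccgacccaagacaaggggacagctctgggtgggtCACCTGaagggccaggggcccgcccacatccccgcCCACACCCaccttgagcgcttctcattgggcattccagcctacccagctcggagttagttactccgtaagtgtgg
Nanog: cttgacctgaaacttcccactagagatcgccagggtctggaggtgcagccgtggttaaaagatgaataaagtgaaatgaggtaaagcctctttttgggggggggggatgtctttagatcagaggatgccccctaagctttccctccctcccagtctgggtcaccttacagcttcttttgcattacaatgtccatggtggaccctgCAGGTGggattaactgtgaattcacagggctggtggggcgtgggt

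Letters were searched on both strands of the 300 bases around each RefSeq start, and the share of all 32851 such windows that hold them is given. The Zfp42 stretch holds the octamer of POU factors, ATGCAAAT, at position -186 from the start as its reverse complement ATTTGCAT, a run found in 1.74% of all windows. It also holds the KLF letters GGGTGTGG at -75 as their reverse complement (3.56% of windows) and the E-box CACCTG, the letters of Figla, at -110 (20.2% of windows). The Nanog stretch holds CACCTG at -45 as its reverse complement. None of the letters searched, which also included ACAAAG for SOX factors (18.7%), TCAAGGTCA for Esrrb (0.423%), TAATTG for Nobox (8.00%), TGATTG for Lhx8 (14.0%) and TATAAA (13.6%), was found in the windows of Pou5f1, Esrrb or Klf4. The Sox2 window holds ACAAAG at -206 and TGATTG at -48, and the Tdgf1 window holds CACCTG across the start. Windows were at hand for 7 of the 10 genes, and Dppa5a, Sall4 and Fbxo15 were not searched. A match of letters is a description and no evidence of binding, and its absence says nothing about the factor. Base composition differed widely, from 42% G and C in the 250 bases before the Tdgf1 start to 72% in those of Sox2 and 74% in those of Klf4, around a median of 52.4% over all windows.

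Pou5f1, the POU factor at the centre of the network, was present at day 7 and higher at day 21 in both lines. Its level was 24.4 and 30.1 TPM at day 7, then 167, 154 and 267 TPM in 4F and 73.7 and 103 TPM in 8F at day 21. The 3 groups did not overlap, with day 7 lowest, 8F between and 4F highest. The mean in 4F was 7.20-fold higher at day 21 than at day 7, a difference of 2.77 (SE 0.27) on the log2(TPM + 1) scale, and the mean in 8F was 3.23-fold above that of 4F at day 7. Pou5f1 moved from rank 5942 and 4733 among all genes at day 7 to between 533 and 1141 in 4F at day 21. The gene lies on chromosome 17 and shares 317 of its 2248 exon bases (14.1%) with the antisense gene Gm19553, whose reads came to 24.6% to 39.2% of those of Pou5f1. The paper gives no strand option for the counting of genes, and a read on several genes was split between them. Reads of the shared part therefore cannot be assigned to one of the pair. Gm19553 was listed at 39.5 to 43.6 TPM at day 7, 190 to 299 TPM in 4F and 119 to 158 TPM in 8F. Of its 494 exon bases, 317 are the shared ones, so these values include its part of the split reads.

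Sox2, the partner of Pou5f1 on many enhancers, stayed near the limit of detection. It was listed at 0 in both day 7 libraries, where 3 reads would have been 0.372 and 0.279 TPM. At day 21 it was 1.76, 0 and 3.59 TPM in 4F and 1.42 and 1.55 TPM in 8F, which stand for 17, 0 and 31 reads and for 17 and 18 reads. Both 8F libraries and 2 of 3 4F libraries were thus above day 7, and the second 4F library was not, so the 4F groups overlapped.

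Nanog, the homeodomain factor of the same trio, was found in 1 of 7 libraries. That was the second day 7 library, at 0.940 TPM or 11 reads, and the gene was listed at 0 in the other 6, where 3 reads stand for 0.230 to 0.341 TPM. Stretches of 200 to 245 bases of its transcripts match those of 40 other genes at 90.2% identity or more, while the gene has 2242 exon bases. A part of its reads may not have been placed uniquely, so its level is uncertain to that extent. Its processed copy Nanog-ps1 was listed at 0 in every library. Of the trio, Pou5f1 alone was thus above 4 TPM in any library.

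Esrrb, an orphan nuclear receptor that can stand in for other factors of the network, was 3.92 and 12.3 TPM at day 7. It was 28.3, 37.5 and 44.3 TPM in 4F and 27.6 and 42.4 TPM in 8F at day 21. All 5 day 21 libraries lay above both day 7 libraries, and the day 21 groups overlapped almost fully. The 4F means differed 4.52-fold, by 2.20 (SE 0.45) on the log2 scale, and the day 7 pair differed more in ratio than its other replicates. With the first or the second day 7 library left out, the ratio of the 4F means was 2.98 or 9.36, and that of 8F at day 21 to 4F at day 7 was 2.84 or 8.93.

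Sall4, a zinc finger factor that binds with Pou5f1 in mESCs and is also made in oocytes, was 30.0 and 26.9 TPM at day 7. At day 21 it was 127, 98.0 and 104 TPM in 4F and 119 and 141 TPM in 8F, all above day 7, and the day 21 groups overlapped. The 4F difference was 3.85-fold or 1.90 (SE 0.15) in log2, the smallest error of the 8 genes tested. Sall4 shares 526 exon bases with Gm14261 on the opposite strand, whose reads came to at most 3.31% of those of Sall4.

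Klf4, a zinc finger factor downstream of LIF, had the smallest difference over time of the 8 genes tested. Its level was 12.2 and 16.7 TPM at day 7, 20.6, 26.5 and 18.8 TPM in 4F at day 21, and 15.3 and 12.8 TPM in 8F at day 21. The 4F libraries of day 21 lay above those of day 7, by 1.52-fold of the means or 0.57 (SE 0.24) in log2, while the 8F libraries lay within the day 7 range. With median-of-ratios rescaling that difference was 0.25 and with voom on recovered reads 0.03.

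Zfp42, the zinc finger gene better known as Rex1 and a common marker of naive mESCs, went the other way. It was 20.6 and 21.9 TPM at day 7, against 6.35, 6.79 and 8.75 TPM in 4F and 4.93 and 4.42 TPM in 8F at day 21. The 3 groups did not overlap, with day 7 highest and 8F lowest. The 4F mean was 2.91-fold lower at day 21, a log2 difference of -1.43 (SE 0.27), and the 8F mean was 4.54-fold below the day 7 mean. Its processed copy Zfp42-ps1 is 98.1% identical over 266 bases and reached 7.80 TPM, which makes the split of reads between the pair uncertain.

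Fbxo15, an F-box protein gene whose promoter is used as a reporter of pluripotency, was 9.18 and 5.24 TPM at day 7 and 0.635, 1.71 and 0.213 TPM in 4F at day 21. The lowest of these is 3 reads. In 8F at day 21 it was 4.90 and 4.06 TPM, below both day 7 libraries and above all 3 4F libraries of the same day. The 4F mean was 8.45-fold lower at day 21 (log2 difference -2.19, SE 0.49), while the 8F mean was 1.61-fold lower than that of 4F at day 7. Of the 8 genes tested across the table, Fbxo15 was the one whose 2 day 21 groups stood farthest apart in relative terms, at 5.25-fold of the means. Both ratios rest in part on the second 4F library of day 21, without which the 4F mean was 17.0-fold lower than at day 7 and the 8F mean 10.6-fold higher than that of 4F.

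Dppa5a, a small KH domain RNA-binding protein of mESCs and germ cells, was the most abundant of the 10 in every library. It was 164 and 301 TPM at day 7, 634, 832 and 548 TPM in 4F at day 21, and 1076 and 875 TPM in 8F at day 21. The 3 groups did not overlap and 8F was highest, at ranks 67 and 83 among all genes. The 4F difference was 2.89-fold or 1.57 (SE 0.29) in log2, and Dppa5a held 55.1% to 81.3% of the summed TPM of the 10 genes. Transcripts of 10 other genes, 8 of them pseudogenes, match it over 299 to 417 bases at 90.2% to 97.2% identity. The highest of these was Pigp with 23.9 TPM, and since reads that map to several places were dropped, the level of Dppa5a is uncertain.

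Tdgf1 (Cripto) was listed at 0 in 6 libraries and at 0.0675 TPM, which is 1 read, in the second 8F library. At these depths 3 reads stand for 0.196 to 0.292 TPM, so a lower level was not detectable.

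**Figure D1:**
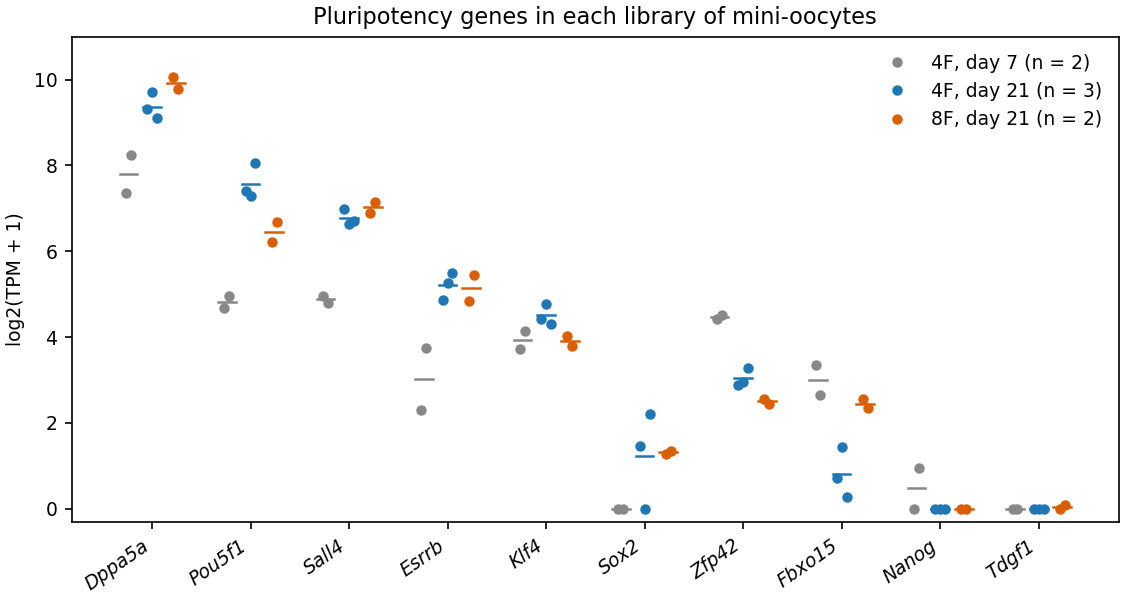
Level of each of the 10 genes in each library as log2(TPM + 1), with points for libraries, short lines for group means, and grey for 4F at day 7 (n = 2), blue for 4F at day 21 (n = 3) and orange for 8F at day 21 (n = 2). Dppa5a, Pou5f1, Sall4 and Esrrb lie higher at day 21 than at day 7, Zfp42 and Fbxo15 lie lower, and Nanog and Tdgf1 lie at or near 0.

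Counted over the 10 genes, 8 reached 1 TPM in at least 2 libraries and entered the fit across genes, and Nanog and Tdgf1 did not. From day 7 to day 21 in 4F, 5 of the 8 (Pou5f1, Esrrb, Sall4, Dppa5a and Klf4) were higher without overlap, 2 (Zfp42 and Fbxo15) were lower without overlap, and Sox2 overlapped. Of the 21780 genes tested, 33.8% were higher and 22.9% lower without overlap in the same contrast. The genes were picked on this contrast, so nothing is read from their count. The median of all tested genes was 0.17, while median-of-ratios rescaling moved it to -0.06, quantiles to 0.04 and voom to -0.33. The share of higher genes among all those called was 62.3%, against 48.4%, 52.0% and 37.3% under the same 3 scalings. The sign of the difference of each of the 8 genes was the same under every alternative setting that tested it (17, and 16 for Sox2), with Klf4 between 0.03 and 0.79, Pou5f1 between 2.24 and 2.92, and Fbxo15 between -3.89 and -1.05. Settings that change only the filter, the variance trend or the use of 8F libraries cannot move these differences. Nothing is read from the agreement, since the genes were picked on this contrast.

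The second comparison sets the 8F line against the 4F line at day 21, and shares the day 21 4F libraries with the first. A difference here may go with the 4 added factors, the line or its reporter, which cannot be told apart. The choice of the 10 genes names no difference between the lines, but their values in all 7 libraries were known when they were chosen. None of the 8 tested genes passed FDR 0.05, beside 8.37% of all tested genes (3.95% higher and 4.41% lower in 8F). Without overlap between the lines, 2 of the 8 were higher and 3 lower in 8F, beside 24.1% and 19.8% of all tested genes. Without adjustment 3 of the 8 had p under 0.05 by limma, and 1 passed FDR 0.05 by voom on recovered reads.

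Pou5f1 had the lowest adjusted p, with 8F lower by 2.23-fold of the means and no overlap (log2 difference -1.12, 95% interval -1.77 to -0.47, limma with Benjamini-Hochberg adjustment, adjusted p = 0.0557). It passed the threshold with voom (-0.97, adjusted p = 0.0430) and with a filter at 5 TPM, and over all 17 alternatives its adjusted p ran from 0.0430 to 0.419. Fbxo15 was 5.25-fold higher in 8F with no overlap (log2 difference 1.64, 95% interval 0.47 to 2.81, adjusted p = 0.102 by limma). It lay below 2 TPM in each 4F library, and its adjusted p over the alternatives ran from 0.0566 to 0.550.

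The other differences between the lines were smaller. Klf4 and Zfp42 were lower in 8F with no overlap (log2 differences -0.60 and -0.54, adjusted p = 0.207 and 0.308 by limma), and Dppa5a was higher with no overlap (0.55, adjusted p = 0.335). Sall4, Esrrb and Sox2 overlapped between the lines, with log2 differences of 0.25, -0.07 and 0.09. The 95% intervals of the fit were narrow for Sall4 (-0.12 to 0.61) and wide for Esrrb (-1.15 to 1.00) and Sox2 (-1.43 to 1.61), so that a change of Esrrb or Sox2 by 1 log2 unit could have gone unseen. The median of all tested genes in this comparison was 0.06, and with voom 0.26. Of the genes called, 47.3% were higher in 8F, against 61.1% without the variance trend and 62.9% with voom.

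**Figure D2:**
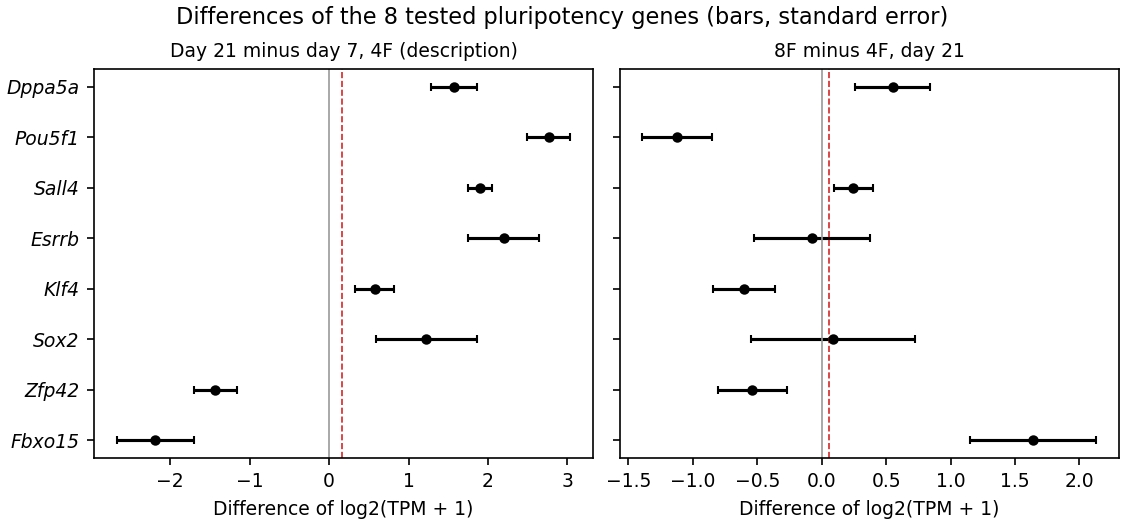
Differences on the log2(TPM + 1) scale for the 8 genes tested, day 21 minus day 7 in 4F on the left and 8F minus 4F at day 21 on the right, with bars for the standard error of the fit and a dashed line at the median of all tested genes. Pou5f1 lies at 2.77 and -1.12, Fbxo15 at -2.19 and 1.64, and Esrrb at 2.20 and -0.07.

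A wider list of 30 other genes of the pluripotent state was compared in the same way, of which 23 were tested. From day 7 to day 21 in 4F, 10 rose and 5 fell, beside 25.3% and 15.3% of all tested genes (40.6% in either direction), with a median log2 difference of 0.54 beside 0.17 over all tested genes. Under voom the counts were 6 and 7, and leaving out the first day 7 library gave 6 and 2. Gbx2, a homeobox gene that LIF induces in mESCs, went from 5.74 and 3.47 TPM to 180, 176 and 158 TPM (log2 difference 4.97, adjusted p = 3.79e-05 by limma). Tcl1, a cofactor of AKT kinase, went from 88.4 and 113 TPM to between 548 and 646 TPM (2.56, adjusted p = 8.31e-05). Zfp57, a zinc finger protein that guards imprints, went from 383 and 351 TPM to between 1389 and 1432 TPM (1.94, adjusted p = 6.13e-05). Nr5a2, a nuclear receptor that can activate Pou5f1, rose from a mean of 3.10 to 11.5 TPM (1.53, adjusted p = 0.0324), a call lost in 11 of 17 alternatives with an adjusted p of up to 0.132.

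The genes that fell included Dppa2 and Dppa4, which share a name with Dppa5a but encode SAP domain proteins that act together. Dppa2 went from 51.4 and 47.6 TPM to 10.8, 18.9 and 12.6 TPM (log2 difference -1.78, adjusted p = 0.00352 by limma). Dppa4 went from 53.8 and 51.5 TPM to 7.32, 6.51 and 0.287 TPM (-3.64, adjusted p = 0.0112), which missed the threshold without the first day 7 library (adjusted p = 0.0534). Trim71, a translational repressor, also fell, from a mean of 176 to 90.9 TPM (-0.94). Dppa3 (Stella), a maternal factor of the egg, was the most abundant of the list, with means of 7464 TPM at day 7, 7420 TPM in 4F and 6599 TPM in 8F. Fgf4 and Gdf3 were listed at 0 in all 7 libraries.

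Between the lines at day 21, 5 of the 23 genes were higher in 8F and 1 was lower, beside 3.95% and 4.41% of all tested genes. In the order of their difference these were Klf2, Nr0b1, Dppa2, Tcl1 and Thap11 higher and Rif1 lower. Klf2, the closest functional relative of Klf4 in mESCs, was 14.8 and 11.6 TPM in 8F and 2.77, 0.748 and 1.29 TPM in 4F (2.51, adjusted p = 0.0282 by limma). Dppa2 was 51.4 and 32.6 TPM in 8F, without overlap with 4F and with its day 7 level inside the 8F range (1.51, adjusted p = 0.0288). Nr0b1 (Dax1), an orphan receptor that binds Pou5f1, was 1.52 and 3.23 TPM in 8F and listed at 0 in the other 5 libraries, and is below the level at which genes were otherwise named. Leaving out either 8F library, or the replicate block, left none of the 6 calls, leaving out the third 4F library of day 21 left Rif1 alone, and leaving out the first or the second 4F library of day 21 gave 1 and 2 higher genes and 0 lower.

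**Figure D3:**
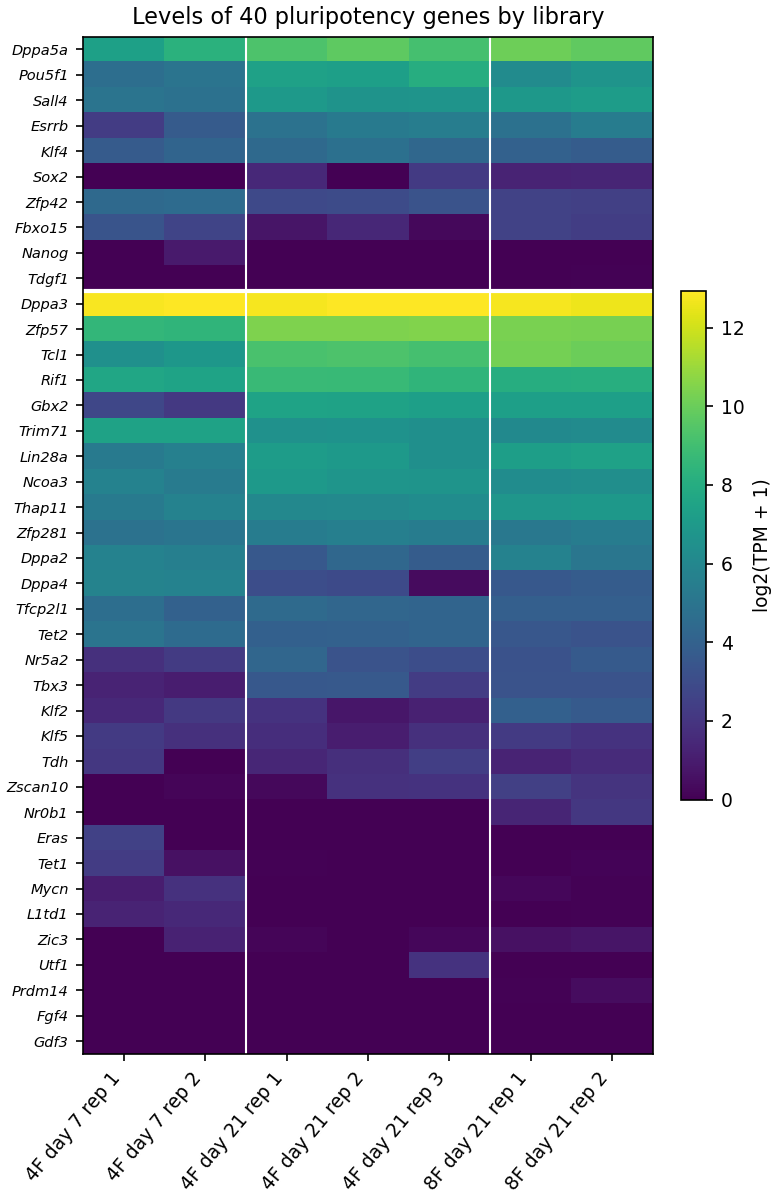
Levels as log2(TPM + 1) (colour) of the 10 genes (above the white line) and the 30 other pluripotency genes (below, ordered by mean TPM) in the 7 libraries (columns). Dppa3, Zfp57 and Tcl1 are the brightest of the lower block, Gbx2 brightens at day 21, Dppa4 darkens, and Klf2 and Nr0b1 are brighter in the 8F columns.

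Nodal signalling, the pathway that Tdgf1 serves, was measured through 16 genes, of which 10 were tested. The ligand Nodal, the second co-receptor gene Cfc1, the receptor gene Acvr1c and the nuclear partner Foxh1 were too low to test, and the inhibitors Lefty1 and Lefty2 were listed at 0 throughout. Of the 10 tested, 5 rose and 1 fell from day 7 to day 21 in 4F, beside 25.3% and 15.3% of all tested genes. Between the lines 2 were higher in 8F, beside 3.95% of all tested genes. Over time the counts were 3 and 1 under median-of-ratios rescaling and 4 and 1 under quantile normalization and under voom. The proteases that cut the Nodal precursor were among those that rose, Furin from a mean of 31.2 to 107 TPM (log2 difference 1.78, adjusted p = 0.00141 by limma) and Pcsk6 from 2.43 to 12.6 TPM (2.37, adjusted p = 0.0329). The signal transducers Smad3 (37.4 to 85.3 TPM) and Smad2 (22.7 to 51.8 TPM) and the receptor gene Acvr1b (28.9 to 47.3 TPM) rose too, the last a call lost under voom (log2 difference 0.15, adjusted p = 0.542), and the receptor gene Acvr2a fell from 18.0 to 9.49 TPM. Smad3 and Acvr1b were higher again in 8F, at 134 and 138 TPM and at 71.2 and 78.5 TPM (log2 differences 0.66 and 0.66, adjusted p = 0.0155 and 0.0469). Tdgf1 was thus at or near 0 in libraries that held RNA of receptors and SMADs of its pathway and little or none of its ligand.

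LIF signalling through STAT3 maintains Klf4 in mESCs, and Stat3 is also 1 of the factors added in 8F. Of 15 genes of this pathway 13 were tested. In 4F from day 7 to day 21, 4 rose (Stat3, Jak2, Ptpn11 and Pim1) and 1 fell (Junb), beside 25.3% and 15.3% of all tested genes. Those upward calls depended on scaling, with 2 higher and 1 lower under median-of-ratios rescaling, 2 and 2 under quantile normalization, and 0 and 4 under voom. Junb, an immediate target of many cytokines, went from 10.6 and 17.1 TPM to 0.236, 0 and 0.132 TPM (log2 difference -3.70, adjusted p = 0.000695 by limma). Stat3 was 117 and 120 TPM at day 7, 180, 181 and 183 TPM in 4F and 176 and 196 TPM in 8F at day 21, and its difference over time was 0.61, or -0.02 under quantile normalization. Between the lines Stat3 differed by 0.03 (SE 0.09, adjusted p = 0.898), with transgene and endogenous reads in 1 value. No gene of the pathway passed FDR 0.05 between the lines, beside 8.37% of all tested genes. Of the 13, 5 had an unadjusted p under 0.05 by limma, and voom called 1. Socs3, the feedback inhibitor that STAT3 induces, was 52.3 and 50.3 TPM in 8F and 21.2, 21.4 and 9.24 TPM in 4F at day 21. Its difference was 1.60 (adjusted p = 0.0798 by limma), and it was the 1 gene called by voom (1.80, adjusted p = 0.0109).

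Relatives of the 10 genes were compared to see whether the family moved with the member. Of 24 relatives 22 were tested. From day 7 to day 21 in 4F, 10 rose and 5 fell, beside 25.3% and 15.3% of all tested genes. Between the lines 1 was higher in 8F, beside 3.95% of all tested genes. Voom called 10 higher and 7 lower over time and 5 higher in 8F. In the KLF family, Klf17, a factor of oocytes and early embryos, went from 10.9 and 13.2 TPM to 205, 238 and 198 TPM in 4F and 296 and 291 TPM in 8F (log2 difference over time 4.04, adjusted p = 2.71e-05 by limma), so at day 21 its level was far above that of Klf4. Klf6 fell from 46.5 and 49.2 TPM to 6.90, 14.6 and 8.58 TPM (-2.21, adjusted p = 0.00214), and Klf5 did not pass in either comparison.

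Among SOX genes, Sox15, which binds sites like those of Sox2, was 132 and 134 TPM at day 7, 129, 108 and 107 TPM in 4F and 75.3 and 83.6 TPM in 8F at day 21, with differences of -0.22 over time (adjusted p = 0.207) and -0.52 between lines (adjusted p = 0.0506, both limma). In the SALL family Sall1 was 2.18 and 3.60 TPM at day 7 and listed at 0 in the 3 4F libraries of day 21, opposite to Sall4. The relatives of Esrrb differed from each other, with Esrra falling from 5.34 and 5.62 TPM to below 1 TPM in 4F (-2.14, adjusted p = 0.00373) and Esrrg at means of 8.31 and 12.9 TPM (0.68, adjusted p = 0.195). Of the POU relatives, Pou2f3 fell from 11.1 and 10.5 TPM to 0.622, 1.79 and 4.86 TPM (-1.98, adjusted p = 0.0329) and Pou2f1 had means of 33.9 and 45.0 TPM (0.39, adjusted p = 0.0860).

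The KH domain relatives of Dppa5a on the list rose with day, all 5 of them, beside 25.3% of all tested genes. Ooep is also 1 of the 14 oocyte markers, all of which rose. Ooep and Khdc3, subunits of the subcortical maternal complex of the egg, had log2 differences of 1.52 and 0.83, and Khdc1a, Khdc1b and Khdc1c had 2.28, 3.67 and 3.39. Khdc1a was the 1 relative called higher in 8F by limma on log2(TPM + 1), at 451 and 383 TPM against 103 to 115 TPM in 4F (1.94, adjusted p = 0.0152). Voom called Khdc1b, Khdc1c, Khdc3 and Klf17 higher in 8F as well, with adjusted p of 0.00825, 0.00280, 0.0184 and 0.00964. Their voom log2 differences were 0.68, 1.93, 0.27 and 0.62, beside a voom median of 0.26 over all tested genes. Khdc3 thus lay at that median, and by limma its difference was 0.12 (adjusted p = 0.531). Khdc1c was 583 and 424 TPM in 8F against 138 to 152 TPM in 4F. The F-box genes on the list also rose, Fbxo43 by 3.02, Fbxo5 by 2.31 and Fbxo34 by 1.94, while Fbxo15 itself was lower at day 21. Other KH domain and F-box genes were not looked at, so these counts say nothing about either family.

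**Figure D4:**
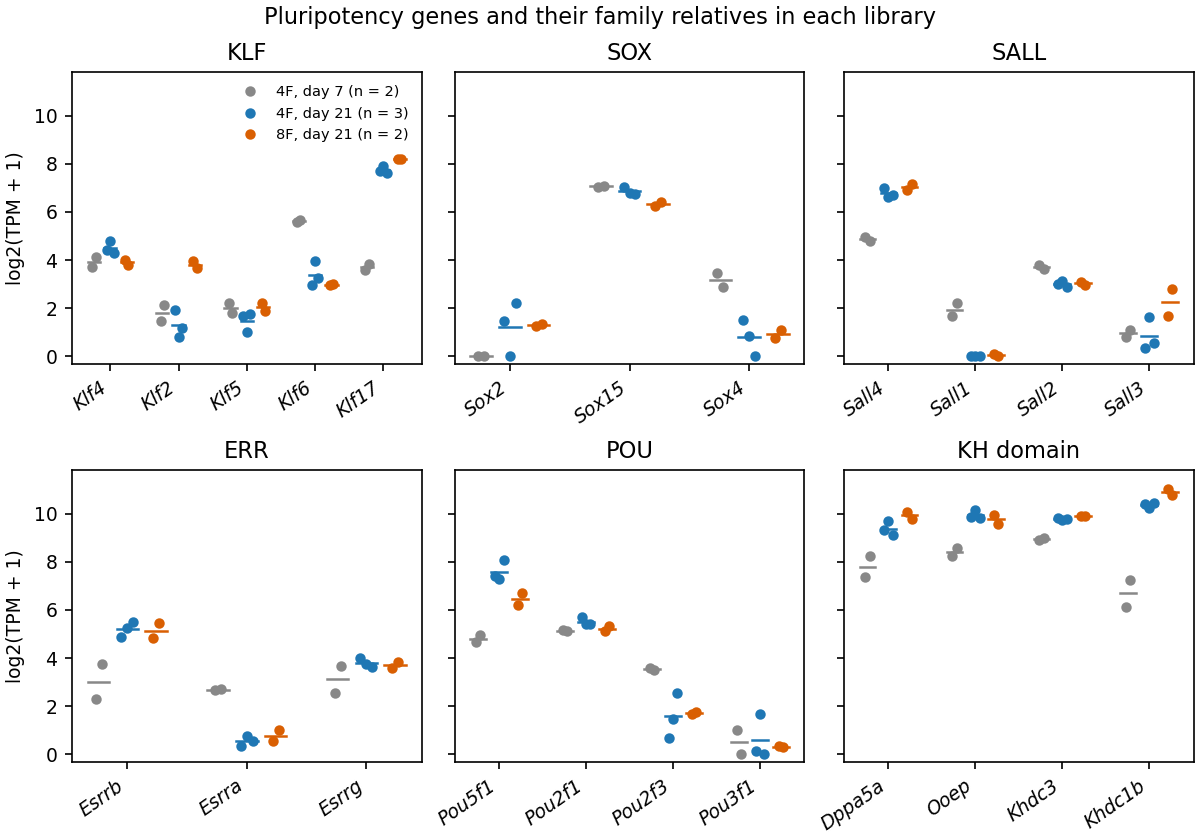
Levels as log2(TPM + 1) of Klf4, Sox2, Sall4, Esrrb, Pou5f1 and Dppa5a (first in each panel) and of genes of the same families, with 1 point per library and a line at each group mean. Klf17 lies above Klf4 and Sox15 above Sox2 at day 21, while Sall4, Esrrb and Pou5f1 are the highest of their panels at day 21.

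Further lists on the state of the cells are given by counts. Over all tested genes 25.3% rose and 15.3% fell over time, and 3.95% were higher and 4.41% lower in 8F. Of 12 genes that act as repressors or chromatin regulators of pluripotency genes, 5 rose and 2 fell over time in 4F (4 and 2 under median-of-ratios rescaling, 2 and 1 under quantile normalization, 3 and 3 under voom) and none passed between the lines (4 at an unadjusted p under 0.05 by limma, 3 called by voom). Nr6a1 (GCNF), the nuclear receptor known to silence Pou5f1, was 24.7 and 21.6 TPM at day 7, 28.9, 28.6 and 28.7 TPM in 4F and 39.2 and 38.9 TPM in 8F. By limma its differences were 0.30 over time (adjusted p = 0.131) and 0.43 between the lines (adjusted p = 0.124). Voom called the latter (0.60, adjusted p = 0.0114), beside a voom median of 0.26 over all tested genes. Cnot3, a subunit of the CCR4-NOT complex that is itself known to be needed by mESCs, rose from 93.6 and 106 TPM to between 320 and 355 TPM (1.73). Of 19 genes of the formative and primed epiblast 9 were tested, of which Lef1 rose (0.174 and 0 to 15.1, 17.9 and 11.1 TPM) and Sox4 fell (from a mean of 8.31 to 0.895 TPM), and the counts over time were 1 and 3 under median-of-ratios rescaling, 1 and 2 under quantile normalization and 1 and 4 under voom. None was called between the lines (1 at an unadjusted p under 0.05, 0 by voom). Fgf5 and Otx2, which mark the exit from naive pluripotency, were below 1 TPM in every group on average.

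The shares of all tested genes are again 25.3% and 15.3% over time and 3.95% and 4.41% between the lines. Of 9 markers of primordial germ cells 7 were tested, with 1 higher and 1 lower over time and 2 lower in 8F. Over time these counts were 0 and 2 under median-of-ratios rescaling and 0 and 3 under voom, the higher call being Ddx4. Of 12 proliferation genes 10 rose over time, or 9 under median-of-ratios rescaling, 8 under quantile normalization and 7 under voom. Between the lines 1 was higher and 1 lower in 8F. The paper reports that Shield-1 quickly stopped proliferation, and cell division was not measured here. Granulosa markers summed to at most 6.11 TPM in any library, with none of the 4 tested called in either comparison (0 and 1 at an unadjusted p under 0.05 by limma, 0 and 0 by voom). Of 7 tested primitive endoderm markers 2 rose and 3 fell over time and 1 was higher in 8F, and of 5 tested neural and mesoderm markers 3 rose, 1 fell and 1 was higher in 8F. Between the lines, 1 of the oocyte markers was higher and 3 were lower in 8F (4 and 5 by voom, 0 and 1 with median-of-ratios rescaling), and 1 trophoblast marker was higher.

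Genes within 50000 bases of the 10 were listed to see what surrounds them. Dppa5a on chromosome 9 has Ooep 7932 bases away, with means of 341 TPM at day 7, 982 TPM in 4F and 877 TPM in 8F at day 21, and Omt2b 37432 bases away, with 4.15, 104 and 285 TPM. Next to Pou5f1, by contrast, the protein-coding genes Tcf19, Cchcr1, Psors1c2, H2-Q10 and Cdsn had means of at most 2.65 TPM in each group. Slc2a3, a glucose transporter gene 13176 bases from Nanog, had means of 8.38 TPM at day 7, 0.0329 TPM in 4F and 0.131 TPM in 8F. Atp9a beside Sall4 had means of 58.2, 69.8 and 84.1 TPM. These values are a description, and no test of position was made.

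The genes whose profile over the 7 libraries was closest to each of the 8 were found among the 8668 genes that averaged 10 TPM or more, by the root mean square distance of centred log2(TPM + 1) values. For Pou5f1 these were Znrd1as (0.19), Coil (0.26) and Iqgap2 (0.29), and for Esrrb Oas1d (0.20), Bcl2l11 (0.22) and Dmac1 (0.22). For Sall4 they were Abl2 (0.05), Stard13 (0.06) and Acacb (0.08), and for Dppa5a Zfp937 (0.15), Apoo (0.16) and Samd10 (0.16). Klf4 was closest to Snrpd2 (0.08), Psma3 (0.08) and Tmem164 (0.10), and Sox2 to Zfp691 (0.25), Imp3 (0.30) and Spindoc (0.34). Zfp42 was closest to Atxn7l3b (0.11), Tomm70a (0.14) and Plekhh1 (0.16). Fbxo15 was closest to Vaultrc5 (0.17), Zbed4 (0.30) and Dppa2 (0.32), the last of which is again a pluripotency gene that was low in 4F at day 21.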

How the data were processed

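RNA-seq libraries of mini-oocytes were made with the SMART-seq stranded kit. After trimming (Trim Galore) and alignment to mm10 (HISAT2), the authors took out rRNA reads (bedtools) and reads without a unique position, assigned the rest to GENCODE genes (featureCounts, with a read on several genes split between them) and deposited TPM. Counts were not used here, so the test of the TPM replaces a count test.

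Samples were grouped by their labels. log2(TPM + 1) of the 21780 genes that reached 1 TPM in 2 or more of the 7 libraries was fitted in R 4.3.3 with limma 3.58.1 (lmFit, contrasts.fit, eBayes with trend, two-sided, all 7 libraries in 1 fit, no covariate), with Benjamini-Hochberg adjustment at FDR 0.05. The script was tested on simulated data. Members and lists were chosen with earlier results of these data known. The genes named came from the 10 members, their paralogs and pathway partners, genes at 0 throughout and the 3 closest profiles. From each list came genes past FDR 0.05 with a mean of at least 10 TPM in the higher group (up to 6 by size of difference). Not every gene that meets this rule is named. Dppa3, Trim71, Nr0b1, Nr6a1, Zfp281, Pim1, Sox4, Fgf5, Otx2, Cdx2 and Elf5 lie outside this rule and were named after their values were seen.

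Reads were recovered from the steps of low TPM values and exon lengths of GENCODE vM21, to which 55104 of the 55364 genes matched. Between 81.8% and 86.5% of low values were whole reads within 0.02 of a read, and 98.4% to 99.1% were whole sixths. Recovered reads are estimates, used for depth and for limma voom. Coordinates are those of mm10. Transcripts at least 90% identical to a member over at least 200 bases were listed as copies. Alternatives were pseudocounts of 0.1 and 5, no filter or 5 TPM, median-of-ratios and quantile scaling, no trend, the 2 groups alone, a replicate block, voom, and each library left out.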

Additional observations from a re-analysis of the deposited data

How the results depend on the processing

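Over time, the 8 tested members kept the direction of their difference under all 17 alternatives (16 for Sox2, which a filter at 5 TPM removed), with 4 to 5 of them higher and 2 lower by over 1 on the log2 scale. Several of these alternatives (filter, trend, the 2 groups alone, an 8F library left out) cannot move the difference, so the agreement is no support. Leaving out each library in turn gave 6 to 9 higher and 2 to 5 lower genes of the 10 and 5 called among the other pluripotency genes, the lowest of both without the first day 7 library, and voom gave 6 higher. Between the lines, 1 member (Pou5f1) was called with a filter at 5 TPM and with voom, and 0 with every library left out in turn. Of the 5 higher and 1 lower other pluripotency genes in 8F, 3 and 0 were called with no filter, 2 and 0 without the trend, 4 and 0 with quantile normalization, 0 and 0 with the replicate block, and 0 to 5 and 0 to 1 with each library left out. The difference of Dppa3 over time was -0.01, and became 0.56 with quantile normalization and -0.57 with voom (adjusted p = 0.000488). That of Zfp281 was 0.54 and became -0.00705 with voom. The cause of either was not tested. Over all genes the replicate block gave 7241 calls over time instead of 8847, and 164 between the lines instead of 1822, where leaving out an 8F library gave 86 or 98. Same-numbered libraries showed no strong shared deviation (correlations of deviations from -0.04 to 0.01). This cannot decide whether the numbers pair the samples, which the labels do not say. Between the lines no trend gave 994 calls, and leaving out a 4F library of day 21 gave 1030 to 1077. Depth limits Sox2, Nanog, Tdgf1 and Fbxo15, which stood at few reads or none.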
